A study of Rattus norvegicus with 6 samples.

Results

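Spp1, Ibsp, Dmp1 and Mepe are the genes of the SIBLING family (small integrin-binding ligand, N-linked glycoproteins) that encode phosphoproteins of the mineralised bone matrix. They were taken by name, 4 of the 37203 genes in the count table, and all 4 passed the filter on low counts that left 16066 genes for testing. The dentin gene of the family, Dspp, is given only beside them. Counts came from RNA sequencing of rat alveolar tissue, the part of the jaw that holds the teeth, in 6 libraries. By title, 3 are case libraries, numbered 5, 6 and 9, and 3 are control libraries, numbered 5, 6 and 10; values per library follow that order throughout. Teeth were moved in both groups. The source field describes the case libraries as moved without corticision, a surgical cut into the cortical bone, and the control libraries as moved with it, which is the reverse of the usual sense of the titles. Groups are named by title here, and each difference is case minus control. The sources used here give no strain, age, sex, force or days of movement. They also do not say whether each library is another animal, so a p-value here covers only the spread between libraries, which may be technical.

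SIBLING proteins are secreted, acidic and heavily phosphorylated, and carry the Arg-Gly-Asp motif through which cells bind them by integrins. Their phosphate groups bind calcium and mineral, and the state of phosphorylation and cleavage decides whether a member favours or restrains crystal growth. In alveolar bone osteoblasts, which lay down matrix, make bone sialoprotein and osteopontin, osteocytes, the cells buried in that matrix, make DMP1 and MEPE, and osteopontin is also made by osteoclasts, which resorb bone, and by macrophages.

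Of the 4 genes, Spp1 was the only member whose case and control libraries did not overlap, being lower in case. Ibsp and Dmp1 had lower means in case with overlapping libraries, and the means of Mepe were close to each other. None of the 4 differences passed the edgeR quasi-likelihood test over all genes, whose Benjamini-Hochberg adjusted p was 0.999 for each member. The test called 0 of 16066 genes, or 0% at an adjusted threshold of 0.05, and 666 genes, or 4.15%, had an unadjusted p under 0.05. DESeq2 called 21 genes and limma-voom 0, and the members were not among those called by DESeq2. In 4.42% of tested genes all case libraries lay below all control libraries, in 8.47% the groups lay apart in either direction, while 4.05% had all case libraries above; 1 of 4 members is a count to be read against those shares.

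The genes lie next to each other. In the RefSeq annotation of assembly GRCr8, used for gene order because the sources used here do not name the build of the counts, the protein-coding genes on chromosome 14 follow each other as Pkd2, Spp1, Mepe, Ibsp, Dmp1, Dspp and Sparcl1. The RefSeq promoter windows of the same assembly, 250 bases before to 50 bases after the start, are shown for Spp1, whose groups lay apart, and for Ibsp and Mepe, which ran in nearly opposite orders over the libraries. All are on the minus strand and read 5′ to 3′, from chr14:5619755-5620054 (Spp1), chr14:5757193-5757492 (Ibsp) and chr14:5736809-5737108 (Mepe). Capitals mark the motifs searched for on both strands.
Spp1: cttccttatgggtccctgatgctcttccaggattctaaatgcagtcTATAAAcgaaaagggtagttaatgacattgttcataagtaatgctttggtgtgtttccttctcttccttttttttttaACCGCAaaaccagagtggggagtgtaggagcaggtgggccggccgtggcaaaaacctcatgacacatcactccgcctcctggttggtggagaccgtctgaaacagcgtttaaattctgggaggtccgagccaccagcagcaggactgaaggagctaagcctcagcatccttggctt
Ibsp: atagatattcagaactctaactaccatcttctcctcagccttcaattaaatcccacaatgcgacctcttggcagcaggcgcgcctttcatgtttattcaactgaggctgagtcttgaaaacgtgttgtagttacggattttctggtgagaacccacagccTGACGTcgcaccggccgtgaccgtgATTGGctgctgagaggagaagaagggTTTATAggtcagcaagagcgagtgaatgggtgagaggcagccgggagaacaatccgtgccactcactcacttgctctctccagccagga
Mepe: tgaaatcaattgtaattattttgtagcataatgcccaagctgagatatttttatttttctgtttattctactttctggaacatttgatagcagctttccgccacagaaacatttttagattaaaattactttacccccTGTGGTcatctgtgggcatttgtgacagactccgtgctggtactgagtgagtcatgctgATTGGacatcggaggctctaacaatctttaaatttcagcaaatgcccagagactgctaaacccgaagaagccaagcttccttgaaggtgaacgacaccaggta
The motifs searched were ACCGCA, a form of the Runx site, and ACCACA, another form of it. The others were the box CCAAT, the sequence TGACGT found in cAMP response elements, and the box TATAAA. No match overlapped another in these windows. Positions are of the leftmost base as printed, with -1 the base before the start. In Spp1, ACCGCA stood at -126 and TATAAA at -204. In Ibsp, TGACGT stood at -90, the reverse complement of CCAAT at -65 and that of TATAAA at -39. In Mepe the reverse complement of ACCACA stood at -112 and that of CCAAT at -53. Of 33469 rat promoter windows of this length, 6.39% held ACCGCA, 17.3% ACCACA, 37.5% CCAAT, 7.94% TGACGT and 14.2% TATAAA on either strand. The matches are a description of letters and not of bound sites. The start used for Ibsp and Mepe is the outermost start of the annotated gene span. For Spp1 the start used lies 891 bases from the outermost one, so its motif positions hold for that start only. The window listed for Dmp1 starts inside the annotated span of the gene, 27070 bases downstream of its outermost start, and is not shown.

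Library totals ran from 10886303 to 14433740 counts. CPM are counts scaled to library size after TMM scaling (trimmed mean of M-values). Of the variance in log2 CPM over tested genes, the first principal component held 42.3% and separated both libraries numbered 5 from the remaining 4, not case from control. All 12 osteoblast markers looked for were counted in every library, among them Col1a1, the main chain of bone collagen, Bglap and Alpl, as were all 11 osteocyte markers. Markers of tooth-forming cells reached a summed 460 CPM in case 5 and 89.8 CPM in control 5 and 0.640 to 7.79 CPM elsewhere, with 3 or 4 of the 8 markers at 0 in each of those 4 libraries. Markers of oral epithelium reached 3620 CPM in control 5 and 19.5 to 50.02 CPM elsewhere. In bulk tissue, fewer cells of a type and less RNA per cell cannot be told apart.

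Spp1 encodes osteopontin, which binds integrins and CD44, restrains crystal growth and lines the surfaces where new bone meets old. Its level was 3663, 3762 and 3509 CPM in the case libraries, and 5021, 4473 and 5450 CPM in the control libraries. The 3 case libraries lay close together, and the highest of them was below the lowest control library. The means were 3644 ± 127.5 CPM in case and 4981 ± 489.7 in control (SD, n = 3 per group, as in all later means). The log2 fold change was -0.45 (SE 0.23, 95% interval -0.98 to 0.08), with a mean 1.37-fold higher in control, an unadjusted edgeR p of 0.0847 and a Benjamini-Hochberg adjusted p of 0.999. Spp1 ranked 1179 of 16066 tested genes by p. Unadjusted p-values of 0.00434 with DESeq2 and 0.0454 with limma-voom became 0.532 and 0.999 after Benjamini-Hochberg adjustment in the same tools. The fold change ran from -0.50 to -0.35 over 15 other settings, and was -0.41 without both libraries numbered 5. Counts behind these values were 41741 to 59627 per library, so counting error is small beside the spread between libraries.

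**Figure D1:**
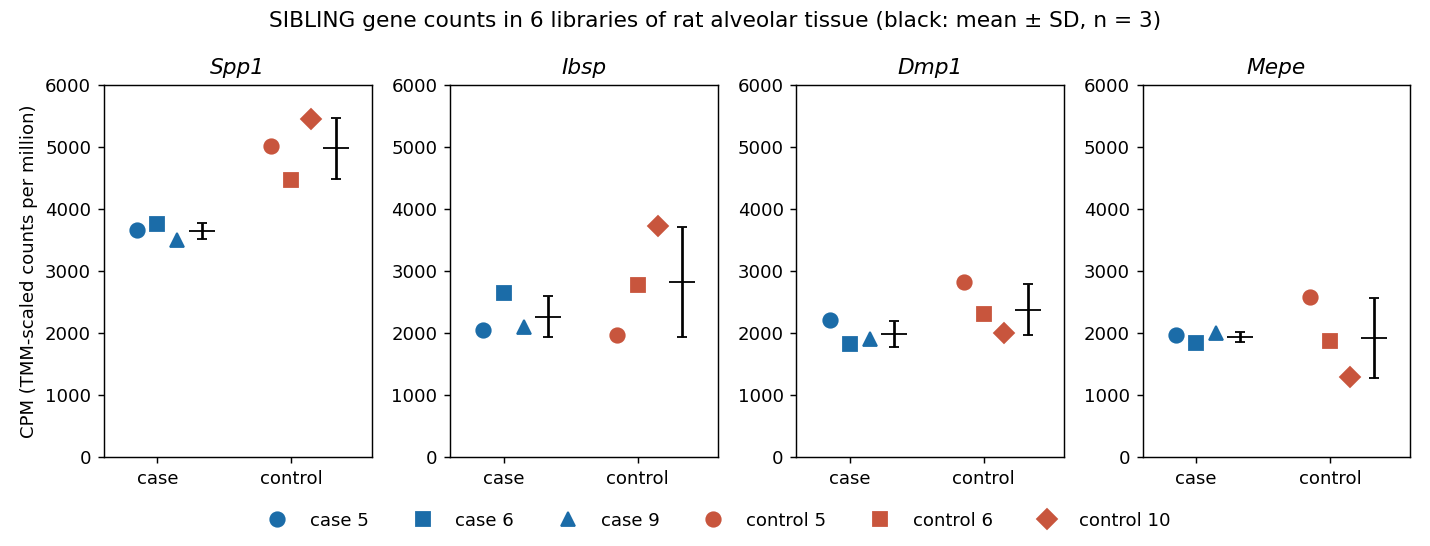
CPM of Spp1, Ibsp, Dmp1 and Mepe on the y axis in each case (blue) and control (red) library, with the group mean and SD in black (n = 3). Spp1 is at 3509 to 3762 CPM in case and 4473 to 5450 in control, while the groups of the other genes overlap and control 5 and control 10 take opposite ends of the control group in Ibsp, Dmp1 and Mepe.

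Ibsp encodes bone sialoprotein, which starts the formation of apatite crystals and is made by osteoblasts and by the cementum-forming cells of the tooth root. Its level was 2051, 2643 and 2103 CPM in the case libraries, and 1969, 2777 and 3734 CPM in the control libraries. Control 10 was the highest and control 5 the lowest of all 6 libraries, with the case libraries between them. The means were 2266 ± 327.9 CPM in case and 2827 ± 883.6 in control, a log2 fold change of -0.32 (SE 0.29, 95% interval -0.997 to 0.358, edgeR Benjamini-Hochberg adjusted p of 0.999). This value rested on single libraries, being -0.03 without control 10 and -0.52 without control 5. It was -0.01 with the title number as a block, a fit in which control 10 and case 9 do not bear on the difference.

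Dmp1 encodes dentin matrix protein 1, an osteocyte product whose loss leads to soft, poorly mineralised bone and phosphate wasting. Its level was 2218, 1833 and 1905 CPM in the case libraries, and 2822, 2308 and 2007 CPM in the control libraries. In each group the library numbered 5 was the highest, and only case 5 stood above a control library, control 10. The means were 1985 ± 204.8 CPM in case and 2379 ± 412.0 in control, a log2 fold change of -0.26 (SE 0.23, 95% interval -0.79 to 0.27, edgeR Benjamini-Hochberg adjusted p of 0.999). It was -0.12 without control 5 and -0.17 without both libraries numbered 5. Case 5 and control 5 are also the libraries with the highest tooth-forming cell markers. Dspp, the dentin sialophosphoprotein gene of the odontoblast, had 1207, 0 and 2 counts in the case libraries and 161, 14 and 1 in the control libraries. Dmp1 was higher in control 5 than in case 5 while Dspp was lower there, and the part of tooth cells in the Dmp1 values was not tested.

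Mepe encodes matrix extracellular phosphoglycoprotein, an osteocyte protein whose acidic C-terminal peptide blocks mineralisation once released. Its level was 1971, 1841 and 2005 CPM in the case libraries, and 2579, 1879 and 1295 CPM in the control libraries. The case libraries lay close together inside the range of the control libraries, whose highest, control 5, was 1.99 times their lowest, control 10. The means were 1939 ± 86.45 CPM in case and 1918 ± 642.9 in control, a log2 fold change of 0.02 (SE 0.28, 95% interval -0.64 to 0.67, edgeR Benjamini-Hochberg adjusted p of 0.999). The interval leaves room for a difference in either direction, and the sign depended on single libraries, with -0.17 without control 10, -0.01 without case 9 and 0.29 without control 5.

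**Figure D2:**
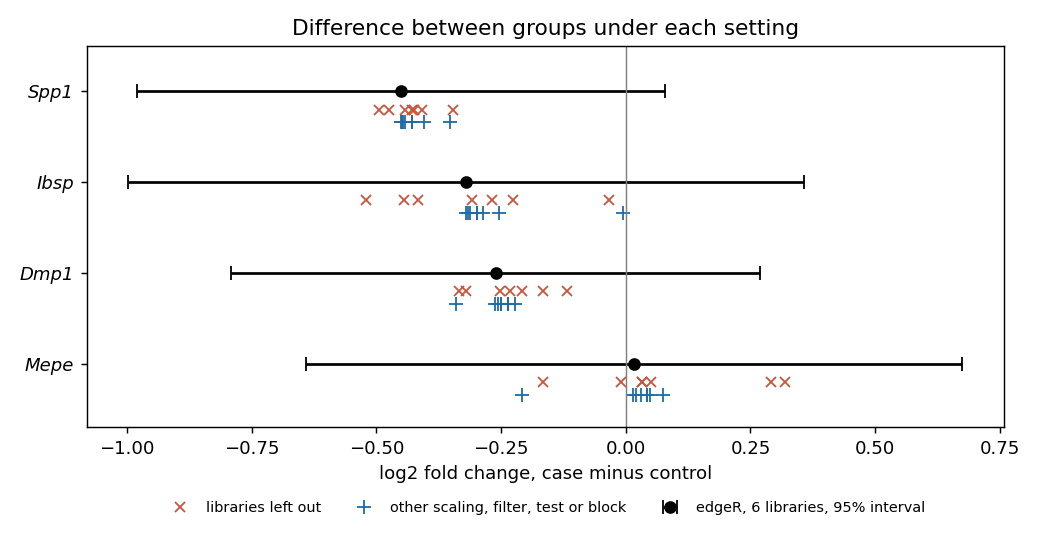
Log2 fold change (case minus control, x axis) of the 4 genes, with the edgeR estimate and 95% interval from 6 libraries in black, the values with libraries left out as red crosses and those with another scaling, filter, test or block as blue plus signs. Every 95% interval includes 0; Spp1 stays between -0.50 and -0.35 while Mepe lies on both sides of 0.

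The 4 genes did not share a profile over the libraries. From control 5 through case 5, case 9, case 6 and control 6 to control 10, Ibsp was higher at each step, from -0.33 to 0.59 in log2 CPM relative to its own mean over the 6 libraries. Over the same order Mepe went from 0.45 in control 5 to -0.55 in control 10. Across the 6 libraries Pearson's r between Ibsp and Mepe was -0.907 (exact permutation p of 0.0111, two-sided) and Spearman's rho was -0.886 (exact permutation p of 0.0333). Adjusted over the 6 pairs of genes by the Benjamini-Hochberg method, these exact p-values were 0.0666 and 0.2, which did not pass. Without control 5 and control 10, the libraries farthest from the median of Ibsp, r was -0.914 over the remaining 4. With 3 libraries each, r was -0.961 within case and -0.996 within control, too few for a test. The other 5 pairs had r from -0.408 (Ibsp and Dmp1) to 0.62 (Dmp1 and Mepe), with exact permutation p-values of 0.164 to 0.65. This relation was looked for after the values had been seen.

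**Figure D3:**
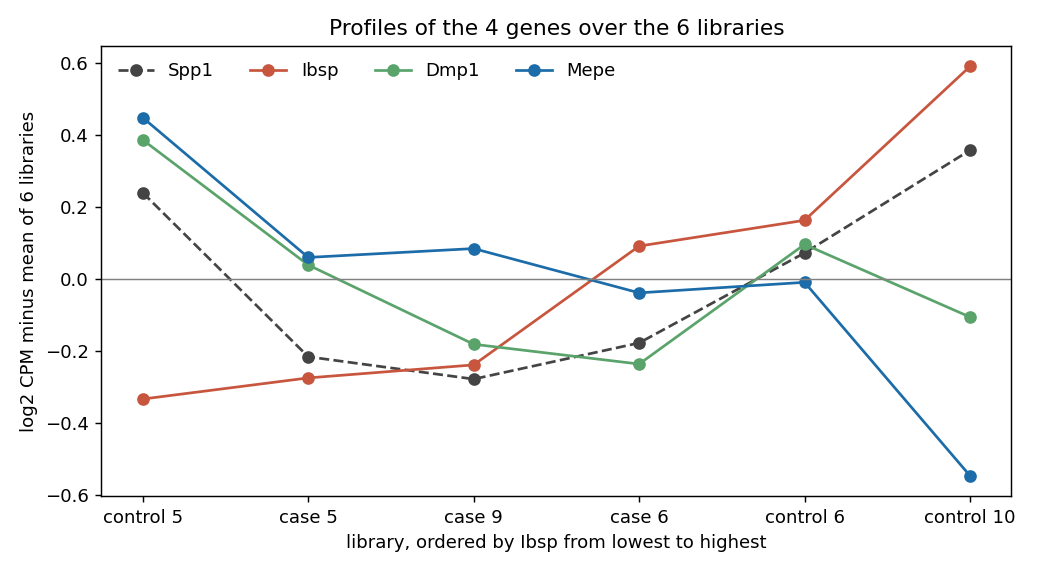
Log2 CPM of each gene relative to its mean over the 6 libraries (y axis), with libraries ordered by Ibsp on the x axis; lines join the values of 1 gene. Ibsp goes from -0.33 in control 5 to 0.59 in control 10 while Mepe goes from 0.45 to -0.55, and Spp1 is below 0 in the 3 case libraries alone.

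Ratios between members within a library do not depend on the scaling between libraries. Since gene lengths were not used, they compare libraries and not the levels of 2 genes. Counts of Ibsp per count of Mepe were 1.04, 1.44 and 1.05 in the case libraries, and 0.764, 1.48 and 2.88 in the control libraries. Counts of Spp1 per count of Mepe were 1.86, 2.04 and 1.75 in the case libraries and 1.95, 2.38 and 4.21 in the control libraries, in the same order. The control libraries spanned the wider range in both ratios, and control 10 was the highest in both. The largest difference among the 6 pairs was that of Spp1 to Mepe, with a mean log2 ratio of 0.91 ± 0.11 in case and 1.43 ± 0.58 in control, a difference of -0.52 with an exact two-sided permutation p of 0.2. All 6 pairs overlapped between groups, with exact permutation p-values of 0.2 to 1 and Benjamini-Hochberg adjusted values of 0.6 to 1, where 3 libraries against 3 allow none under 0.1. Without control 10 the difference for Spp1 to Mepe was -0.20.

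Together the 4 genes took 0.984%, 1.05% and 0.964% of all counts in the case libraries, and 1.30%, 1.06% and 1.21% in the control libraries. For counting error alone the 95% Wilson interval was 0.959 to 0.970% in case 9, the lowest, and 1.29 to 1.31% in control 5, the highest. The groups did not overlap, but case 6 and control 6 lay near each other. The means were 0.999 ± 0.0448% and 1.19 ± 0.122%, a difference of -0.190 percentage points with an exact two-sided permutation p of 0.1, the smallest that 3 against 3 allows. Spp1, with the most counts of the 4 in every library, carries the most weight in this share, and the gap between groups depended on it. Ibsp took 0.275% in case 6 and 0.257% in control 6, Mepe 0.192% and 0.174%, and Dmp1 0.191% and 0.214%. Summed without Spp1, case 6 thus lay above control 6 and the groups overlapped.

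The members were next set beside other genes of the bone cells, as log2 CPM of the gene minus the mean log2 CPM of a marker list in the same library. Only differences between libraries are meaningful on this scale. Beside 12 osteoclast markers, among them the resorption genes Acp5, Ctsk and Mmp9, Spp1 was at 5.69, 5.38 and 5.56 in the case libraries and at 5.94, 5.71 and 5.77 in the control libraries. The case libraries were lower without overlap, though case 5 and control 6 differed by little. Each marker weighs the same in the list mean, also Calcr and Dcstamp, which lay between 0.252 and 10.5 CPM. Beside Acp5, Ctsk or Mmp9 alone the groups overlapped. For Ctsk, case 5 had 3663 CPM of Spp1 beside 1545 of Ctsk, and control 6 had 4473 beside 3388. The difference was -0.26, with an exact permutation p of 0.1, the smallest that this design allows, and a Benjamini-Hochberg adjusted value of 0.873 over 12 combinations of gene and list. Beside 12 osteoblast markers Spp1 overlapped between groups, at 1.62, 2.31 and 2.25 in the case libraries and 2.67, 2.09 and 2.48 in the control libraries. That difference was -0.35 with an exact permutation p of 0.3, and it was -0.00096 without both libraries numbered 5 and -0.13 without case 5, the library with the highest osteoblast marker mean (10.22 in log2 CPM, against 9.52 to 10.03 elsewhere). The 10 macrophage markers had a summed level of 1253, 2144 and 2029 CPM in the case libraries and 1216, 1751 and 1536 CPM in the control libraries, with 1 of the 10, Marco, at 0 in all 6. Their part in the Spp1 values was not tested.

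Of the members, Dmp1 had the smallest range over the libraries beside the osteocyte list, and whether it follows that list was not tested. Beside 11 osteocyte markers Dmp1 was at 4.67, 4.94 and 4.93 in the case libraries and at 4.83, 4.90 and 5.06 in the control libraries. The SDs were 0.155 and 0.12 within the groups and the difference was -0.09 (exact permutation p of 0.6). Ibsp beside the same list ran from 4.31 in control 5 to 5.96 in control 10. Beside the osteoclast list, Ibsp was at 4.85, 4.88 and 4.82 in the 3 case libraries, with an SD of 0.0289, against 4.59, 5.02 and 5.22 in control. Mepe beside the osteocyte list was at 4.49, 4.95 and 5.003 in case and 4.70, 4.60 and 4.43 in control, a difference of 0.24 (exact permutation p of 0.3). It was 0.14 without case 9, 0.40 without case 5 and 0.46 without both libraries numbered 5. Since 3 libraries against 3 cannot give an exact permutation p below 0.1, none of the 12 combinations of gene and list could pass, and these values do not show that the groups were alike.

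**Figure D4:**
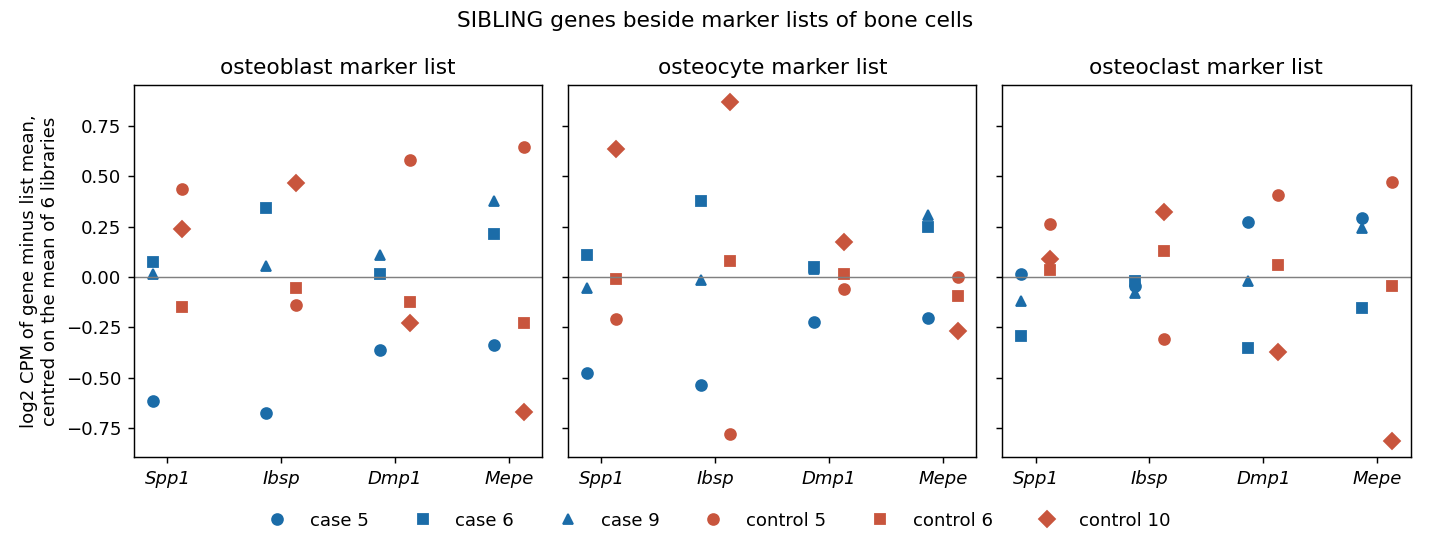
Log2 CPM of each gene minus the mean of the osteoblast, osteocyte or osteoclast marker list in the same library, centred on the mean of the 6 libraries (y axis), for case (blue) and control (red) libraries. The groups lie apart only for Spp1 beside the osteoclast list, and Dmp1 beside the osteocyte list has the smallest range in that panel.

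The genes that follow are receptors, processing enzymes and regulators of the family, and none of them passed the edgeR test over all genes. Those named are the 4 of each list with the smallest edgeR p, so they were picked by their difference. Groups lay apart for 1 of 9 receptors, 1 of 13 processing genes and 1 of 12 regulators, beside 8.47% of all tested genes. Over all tested genes the median log2 fold change was -0.02 and 53.7% were negative. Of 9 tested receptor genes, 6 had a negative fold change and 3 a positive one, with a median of -0.13. Itga5, the fibronectin receptor chain that also binds osteopontin, had means of 108.2 ± 13.3 CPM for case and 137.4 ± 12.5 for control, and its groups did not overlap. Itgav, the chain of the osteoclast and osteoblast vitronectin receptors, averaged 90.0 ± 29.8 and 129.9 ± 27.9 CPM, with case 5 (123.3) above control 6 (105.0). The osteopontin receptors Itga8 (5.79 ± 1.80 against 8.61 ± 2.59 CPM) and Cd44 (262.6 ± 19.2 against 289.7 ± 48.5 CPM) overlapped. The unadjusted edgeR p-values of Itga5, Itgav, Itga8 and Cd44 were 0.0551, 0.0836, 0.136 and 0.443.

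Of 13 tested genes for phosphorylation, cross-linking, cleavage and binding of SIBLING proteins, 11 had a negative and 2 a positive fold change, with a median of -0.14. Mmp3, a metalloproteinase that cleaves osteopontin, was at 0.879, 1.06 and 1.93 CPM in the case libraries and at 1.23, 12.8 and 6.86 CPM in the control libraries. Control 5 fell among the case libraries, so the groups overlapped. F13a1, the factor XIII transglutaminase subunit, whose enzyme class cross-links osteopontin, was higher in case without overlap, at 89.7 ± 8.83 against 69.6 ± 7.07 CPM. Mmp2 (838.7 ± 219 against 1045 ± 143 CPM) and Ctsk, the collagen-cleaving protease of the osteoclast (2231 ± 598 against 2951 ± 1230 CPM), overlapped. The unadjusted edgeR p-values of Mmp3, F13a1, Mmp2 and Ctsk were 0.0162, 0.0377, 0.225 and 0.331, with Benjamini-Hochberg adjusted values of 0.999.

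Of 12 tested regulators of these genes, 8 had a negative and 4 a positive fold change, with a median of -0.04. Vdr, the vitamin D receptor that activates Spp1, averaged 77.1 ± 27.4 CPM for case and 53.6 ± 7.71 for control, opposite in direction to Spp1, and overlapped. Atf4, a transcription factor of late osteoblasts, had every case library below every control library, at 256 ± 23.6 against 307.7 ± 15.3 CPM. Msx2 (1.21 ± 0.173 against 2.10 ± 1.31 CPM) and Dlx5 (52.03 ± 11 against 42.4 ± 11.8 CPM), homeobox genes of osteoblasts, overlapped. The unadjusted edgeR p-values of Vdr, Atf4, Msx2 and Dlx5 were 0.0855, 0.115, 0.193 and 0.257.

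The table held values for Pkd2 and Sparcl1, neighbours of the cluster on the chromosome, and neither passed the test. Pkd2, which encodes the ion channel polycystin-2, was at 42.4, 26.0 and 23.9 CPM in the case libraries and at 52.6, 37.5 and 37.5 CPM in the control libraries, a log2 fold change of -0.47 (SE 0.26, edgeR unadjusted p of 0.115, adjusted 0.999). Sparcl1, a matrix glycoprotein related to osteonectin, averaged 258.7 ± 31.63 CPM for case and 312.8 ± 34.28 for control, a log2 fold change of -0.27 (SE 0.17, edgeR unadjusted p of 0.145, adjusted 0.999). Both overlapped between groups. A non-coding RNA gene annotated across Mepe, LOC100910198, had 9 to 30 counts per library against 14171 to 29467 for Mepe, and whether reads were counted by strand is not stated in any source at hand.

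Other members were not the nearest genes in profile. Likeness was measured as the root mean square difference of log2 CPM over the 6 libraries, after centring each gene on its mean, among 10770 genes with at least 5 CPM on average and an assigned name. Nearest to Spp1 were Slc9a3r2, a scaffold protein of membrane transporters (0.0524), Efna4, an ephrin ligand (0.0593), and Tmem185a (0.0641). Nearest to Ibsp were Cyb561 (0.0971), Lgals1, which encodes galectin-1 (0.0978), and Lipt2 (0.0991). Nearest to Dmp1 were Clec16a (0.0458), Cul5, a scaffold of ubiquitin ligases (0.0461), and Cux1, a homeobox transcription factor (0.0528). Nearest to Mepe were Mybl2, a transcription factor of dividing cells (0.0687), Cenpa, the histone variant of the centromere (0.0722), and Tbc1d22b (0.0878). Between members the difference was smallest for Spp1 and Dmp1 (0.229) and for Dmp1 and Mepe (0.231) and largest for Ibsp and Mepe (0.60), where Mepe ranked 9377 of 10770 by likeness to Ibsp. With 6 libraries and many genes, some genes lie near any profile.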

How the data were processed

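The authors deposited whole-number counts per gene symbol for 6 single-end libraries, made from TRIzol total RNA with an Ion Total RNA-Seq Kit (v2.0), per the labels' protocols. No source used here names the aligner, counter, build, annotation or strand setting. Columns were matched to libraries by title. Members and gene lists were chosen with earlier results of these data known.

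Genes were filtered with filterByExpr, scaled with TMM and tested with edgeR 4.0.16 (quasi-likelihood test, group alone, R 4.3.3), with Benjamini-Hochberg adjustment over 16066 genes and a threshold of 0.05. SE is the absolute log2 fold change over the square root of F. Log2 CPM used a prior count of 2. Single values were compared by exact permutation in scipy 1.17.1. After the main fit, the same steps were run on simulated counts with known changes. These used the observed mean levels and library sizes and the same dispersion for every gene. They held no other differences between libraries, so they do not cover the split of the libraries numbered 5. Alternatives were 3 scalings, 2 filters, DESeq2 1.42.0, limma-voom (limma 3.58.1), each library left out, both libraries numbered 5 left out, the title number as a block, a prior count of 0.5 and another denominator for shares. Named genes were the members, up to 4 genes per family list with the smallest p, the 3 nearest profiles of each member, and chromosome neighbours. Of 4 chosen neighbours, Pkd2 and Sparcl1 had rows in the table. Symbols of 3 marker genes were matched through RefSeq synonyms (Emr1, Hba1 and Hba2 in the table). Lists for skeletal muscle, cartilage, fibroblast and ligament, and erythroid cells were also fixed. Counts limit precision little here: a count of 0 allows 3 counts, or 0.208 to 0.276 CPM. Promoter windows are from RefSeq (GRCr8), where all 4 members matched by symbol.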

Additional observations from a re-analysis of the deposited data

How the results depend on the processing

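The directions of Spp1, Ibsp and Dmp1 and the absence of a call for all 4 genes held under all 15 other settings, with fold changes of -0.50 to -0.35, -0.52 to -0.01 and -0.34 to -0.12. The count of genes called over the whole table was 0 except for 21 with the DESeq2 test and 0 to 2 with libraries left out, the 2 without control 5. The library numbers 5 and 6 occur in both groups, but the labels do not say that they pair animals. The deviations from group means correlated at 0.38 for number 5 and 0.136 for number 6, across genes. Case and control libraries of different numbers ran from -0.338 to 0.283, and case 9 with control 6 (0.283) and case 6 with control 10 (0.145) were above number 6. In the fit with the replicate block, case 9 and control 10 had no partner of the same number. Its group difference therefore rested on the libraries numbered 5 and 6 alone, which leave little to measure spread by. That fit called 0 genes, which says little for this reason. Fold changes were -0.35 for Spp1, -0.01 for Ibsp, -0.34 for Dmp1 and -0.21 for Mepe, the last with its sign turned. The sign of Mepe also turned with libraries left out, whose values ran from -0.17 to 0.29 for single libraries and reached 0.32 without both numbered 5.

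For ratios and list comparisons, no setting could give an exact permutation p below 0.1, so only directions and sizes were compared. The signs of the combinations not named here held, and the cause of the turns was not tested. With libraries left out in turn, the log2 difference ran from -0.324 to 0.0784 for Spp1 to Ibsp, from -0.40 to 0.31 for Ibsp to Dmp1 and from -0.83 to 0.13 for Ibsp to Mepe. It ran from -0.40 to 0.11, -0.53 to 0.29 and -0.274 to 0.0431 for Ibsp beside the osteoblast, osteocyte and osteoclast lists. For Dmp1 beside the same lists it ran from -0.308 to 0.0966, -0.136 to 0.0043 and -0.269 to 0.122, and for Mepe from -0.125 to 0.531 beside osteoblast and from -0.0854 to 0.556 beside osteoclast markers. Without both libraries numbered 5 the sign turned for Spp1 to Ibsp (0.0074) and for Dmp1 beside osteoblast markers (0.24). The share of counts differed by -0.25 to -0.13 percentage points. With 3 libraries per group, the 95% interval of each member's difference includes 0.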

Other observations

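The spread within groups was smaller in case than in control for each of the 4 genes. The coefficient of variation was 3.50% in case and 9.83% in control for Spp1, 14.5% and 31.3% for Ibsp, 10.3% and 17.3% for Dmp1, and 4.46% and 33.5% for Mepe. Over 12164 tested genes with at least 5 CPM on average, 45.9% had the smaller coefficient in case, and over the 79 genes with at least 1000 CPM it was 50.6%. The medians over these 79 genes were 23.6% in case and 22.9% in control. The 4 genes are not separate observations of spread. Within the control libraries r was -0.998 for Ibsp and Dmp1, -0.996 for Ibsp and Mepe and 0.989 for Dmp1 and Mepe. In each of these genes control 5 and control 10 stood at opposite ends of the control group. The comparison of spread was chosen after the values were seen and was not tested.

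Lists of other tissues moved between libraries and not only between groups. Summed levels in the case and then the control libraries were 125.5, 397.9, 1355, 9.37, 1124 and 1097 CPM for skeletal muscle, and 21050, 1876, 7461, 22120, 22810 and 13060 CPM for erythroid genes. They were 114.3, 37.3, 45.3, 226.1, 66.9 and 52.2 CPM for cartilage and 14650, 9158, 9684, 13770, 12280 and 18330 CPM for fibroblast and ligament genes. Control 10, the library with the most Ibsp and the least Mepe, had the highest fibroblast and ligament sum, and control 5, with the least Ibsp and the most Mepe, the lowest muscle sum. Their part in the values of the 4 genes was not tested.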
